A study of Homo sapiens with 4 samples.

Results

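The genes described here are 10 structured noncoding RNAs that nearly every human cell needs for basic gene expression. They are RN7SK, RN7SL1, RN7SL2, RMRP, RPPH1, TERC, VTRNA1-1, RNU4-2, RNU5A-1 and RNU12, and they were found by matching the Ensembl identifiers of the count tables to GENCODE symbols, which gave all 10 among 60564 identifiers. They were measured in Elf1, an established line of human embryonic stem cells (ESCs) in the naïve state, under 2-D and 3-D conditions. The 2-D cells grew attached to plastic coated with Matrigel, a basement membrane extract, and the 3-D cells were dissociated, encapsulated in self-assembling PEG-8-SH/PEG-8-Acr scaffolds and kept there for 21 days. Both conditions used the same ESC expansion medium, and each had 2 biological replicates, so that 4 libraries of 1 line were compared. The libraries were made from total RNA after depletion of ribosomal RNA, without selection for a poly(A) tail, and were sequenced with paired ends. The question was how far the replicates of a condition agree for these RNAs, and which of them changed between 3-D and 2-D culture.

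These RNAs act as folded molecules bound to proteins. 7SK RNA, the product of RN7SK, holds the transcription elongation factor P-TEFb in an inactive complex with HEXIM and LARP7. 7SL RNA, made from RN7SL1 and RN7SL2, is the scaffold of the signal recognition particle, which directs nascent secretory and membrane proteins to the endoplasmic reticulum. RNU4-2 and RNU5A-1 encode U4 and U5 small nuclear RNA (snRNA) of the major spliceosome, and RNU12 encodes U12 snRNA, which recognizes the branch site of minor introns. RPPH1 is the RNA subunit of RNase P, which trims the leader of tRNA precursors, and RMRP is that of the related RNase MRP, which cleaves precursor ribosomal RNA. TERC is the template RNA of telomerase, and VTRNA1-1 is a vault RNA of the large cytoplasmic vault particle. RNA polymerase III transcribes RN7SK, the 7SL genes, RPPH1, RMRP and VTRNA1-1, whereas RNA polymerase II transcribes TERC, RNU4-2, RNU5A-1 and RNU12. Most of these transcripts have no poly(A) tail, and the 7SK, 7SL, U4 and U5 families hold many copies and pseudogenes.

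The sequences of these genes are described first because the counts of a gene depend on how well its reads can be told from those of its copies. All were read from hg38 at the positions of GENCODE release 44, in transcript direction. The 7SL genes compared were RN7SL1 (ENSG00000276168.1, chr14:49586580-49586878, plus strand, 299 bases), RN7SL2 (ENSG00000274012.1, chr14:49862550-49862849, minus strand, 300 bases) and their neighbor RN7SL3 (chr14:49853616-49853914, minus strand). RN7SL1 and RN7SL2 were identical at 295 of 300 aligned positions (98.3%), with 4 substitutions and 1 gap. RN7SL1 and RN7SL3 were identical at 292 of 299 positions (97.7%). Of the 75-base windows of RN7SL1, 22.7% occurred once on the main chromosomes of hg38. The share was 15.9% for RN7SL2 and 78.2% for RN7SL3. A stretch of 75 bases from the other windows could not be assigned to 1 place by its sequence. The paired reads had 150 bases, and the share of them that could not be placed was not measured.

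The U4 and U5 genes were compared with their closest expressed copies in the same way. RNU4-2 (ENSG00000202538.1, minus strand, 141 bases) lies at chr12:120291763-120291903, beside RNU4-1 at chr12:120293097-120293237. RNU5A-1 (ENSG00000199568.1, plus strand, 116 bases) lies at chr15:65296051-65296166, beside RNU5B-1 at chr15:65304677-65304792. The U4 pair is shown because both genes rose in 3-D culture, with capitals at the positions that differ.
RNU4-2: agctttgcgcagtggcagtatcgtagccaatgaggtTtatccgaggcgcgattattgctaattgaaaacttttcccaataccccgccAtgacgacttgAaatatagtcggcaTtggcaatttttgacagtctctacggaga
RNU4-1: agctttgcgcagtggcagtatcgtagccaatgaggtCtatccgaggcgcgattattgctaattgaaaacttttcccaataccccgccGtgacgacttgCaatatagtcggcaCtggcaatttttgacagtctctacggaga
The U4 pair shared 137 of 141 positions (97.2%) and the U5 pair 109 of 116 (94.0%). Every 75-base window of these 4 genes occurred once on the main chromosomes, unlike those of the 7SL genes.

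RNU12 (ENSG00000276027.1, chr22:42615244-42615393, plus strand, 150 bases) is shown because it had no count in any library. Its capitals mark the letters ATTTTTG, a form of the site at which the Sm protein ring assembles on snRNAs.
RNU12: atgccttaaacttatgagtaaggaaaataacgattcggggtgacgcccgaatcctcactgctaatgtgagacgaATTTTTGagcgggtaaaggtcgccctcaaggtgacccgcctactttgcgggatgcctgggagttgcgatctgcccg
The letters ATTTTTG or ATTTTTTG were searched on both strands, and a gene with either form was counted once. They were found at position 75 of RNU12, 119 of RNU4-2 and 88 of RNU5A-1, counted from the first base of the RNA. They also occurred in TERC, which is no snRNA, at position 37 and on the other strand. Of the 1901 snRNA genes in the files, 141 (7.42%) held them on the RNA strand and 57 (3.00%) on the other strand.

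The 10 RNAs fell into 3 classes by their counts. RN7SL1 was among the most abundant genes of the tables, RNU4-2 and RNU5A-1 were measured at low levels, and TERC and VTRNA1-1 had at most 4 counts in a library. RN7SK, RN7SL2, RMRP, RPPH1 and RNU12 had 0 counts in every library. The totals of the libraries ranged from 18276147 counts in 3-D to 33833778 in 2-D, so a count of 0 allows a level of up to 0.0887 to 0.0996 counts per 1000000 (CPM) in a 2-D library and up to 0.142 to 0.164 CPM in a 3-D library, for counting error only. The depth differed with the condition and cannot be told apart from it.

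**Figure D1:**
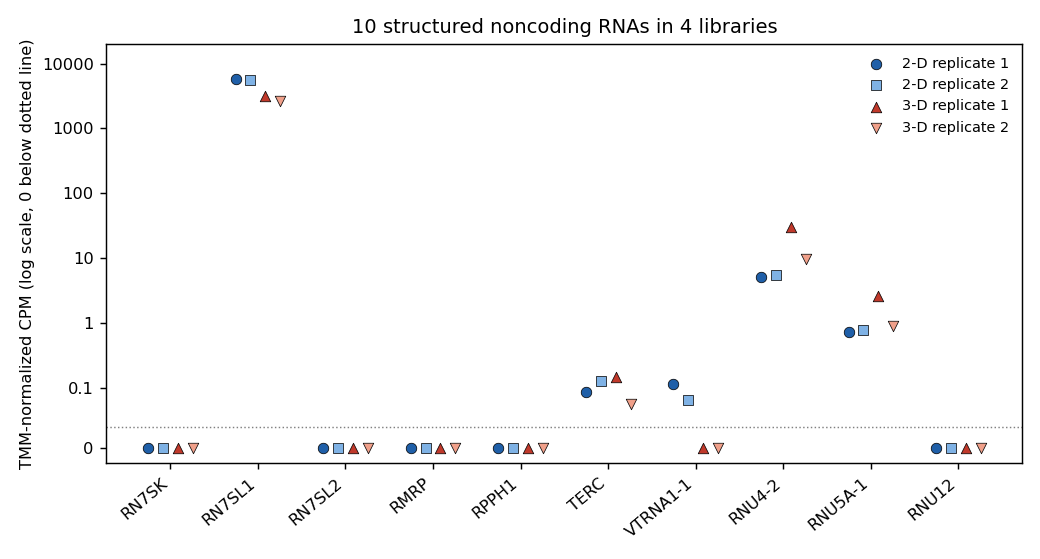
TMM-normalized CPM (log scale, with 0 drawn below the dotted line) of the 10 RNAs, 1 point per library. RN7SL1 lies between 2669 and 5677 CPM with both 3-D libraries below both 2-D libraries, RNU4-2 and RNU5A-1 are highest in 3-D replicate 1, and 5 RNAs are at 0 in all 4 libraries.

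Of the 10 RNAs, 3 had enough counts to be tested with edgeR's quasi-likelihood test, and 2 of them changed at a Benjamini-Hochberg adjusted p below 0.05. RN7SL1 fell and RNU4-2 rose in 3-D culture. Of all 22555 tested genes, 7.9% were called, 4.54% as higher and 3.36% as lower in 3-D. With 3 RNAs tested, their count is a description of these genes and not of structured RNAs as a class. In bulk RNA, fewer cells of a type and less RNA per cell cannot be told apart.

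RN7SL1 had counts of 195865 and 169805 in 2-D and of 65228 and 47939 in 3-D culture. After TMM normalization its level was 5677 and 5500 CPM in 2-D and 3168 and 2669 CPM in 3-D. Both 3-D libraries were below both 2-D libraries, a separation seen in 50.5% of all tested genes in 1 direction or the other. The mean was 5589 ± 125 CPM in 2-D and 2918 ± 353 CPM in 3-D (SD, n = 2 each). RN7SL1 was thus 1.91-fold higher in 2-D, with a log2 fold change of 3-D over 2-D of -0.94 (SE 0.06, edgeR quasi-likelihood test, adjusted p = 1.71e-06). It took 0.579% and 0.564% of all counts in 2-D and 0.308% and 0.262% in 3-D, and by its mean CPM it ranked 12 among all genes. Per kilobase of its exon, which allows a comparison between genes, its level was 18691 CPM in 2-D and 9761 CPM in 3-D.

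RN7SL2, which encodes nearly the same RNA, had no count in any library. RN7SL3 had 48602 and 41478 counts in 2-D and 18831 and 8093 in 3-D. Its log2 fold change was -1.01 (SE 0.21, edgeR quasi-likelihood test, adjusted p = 0.0101), and its 3-D libraries were also below its 2-D libraries. Without 3-D replicate 1 the change of RN7SL3 was -1.61 and without 3-D replicate 2 it was -0.59, and DESeq2 gave an adjusted p of 0.442. RN7SL4P, a 7SL pseudogene, went the other way, with 194 and 208 CPM in 2-D and 311 and 226 CPM in 3-D and a log2 fold change of 0.42 (SE 0.10, edgeR adjusted p = 0.0210). RN7SL5P did not pass the test, at -0.34 (SE 0.20, edgeR adjusted p = 0.386), and its libraries overlapped between conditions.

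The counts were also summed over the genes of each family, which covers reads assigned to another copy but not reads that the counting may have left out. The 7SL family by symbol held 680 genes, of which 372 had counts and 35 were tested, and 1 of these (RN7SL4P) was called higher and 5 lower. Beside RN7SL1 and RN7SL3 these were RN7SL128P, RN7SL279P and RN7SL535P, named after their values were seen. The summed level was 8000 and 7534 CPM in 2-D and 4982 and 3704 CPM in 3-D. Its log2 fold change was -0.84 (SE 0.09, edgeR quasi-likelihood test, adjusted p = 1.65e-04). RN7SL1 held 71.0% and 73.0% of the family's counts in 2-D and 63.6% and 72.1% in 3-D. The sum therefore fell by a similar amount to RN7SL1 itself, of which it largely consists, and the share of the copies was highest in 3-D replicate 1.

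**Figure D2:**
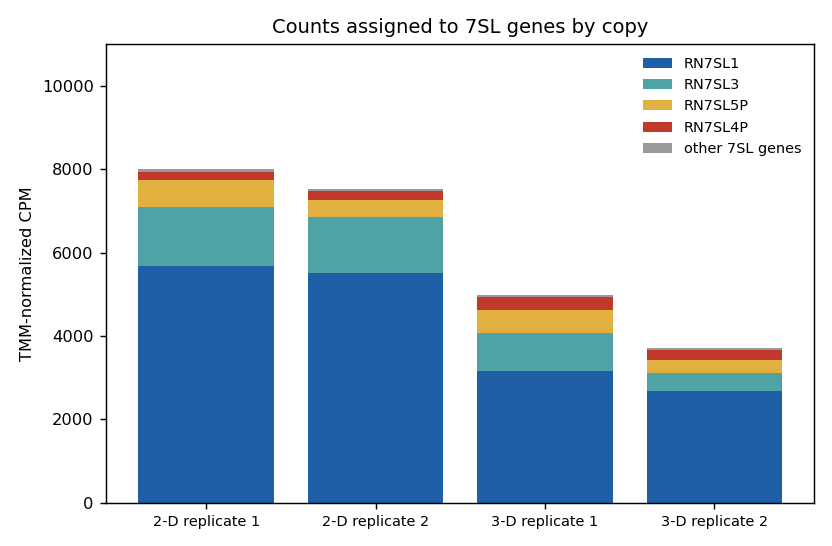
Summed TMM-normalized CPM of the 7SL genes in each library, stacked by gene. RN7SL1 makes up 63.6% to 73.0% of each bar, and the bars reach 8000 and 7534 CPM in 2-D against 4982 and 3704 CPM in 3-D.

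RN7SK (ENSG00000283293.1, chr6:52995621-52995948, plus strand, 328 bases) had no count. A record of the same RNA under the name 7SK (ENSG00000202198.1), which covers the same bases, was also at 0 in all libraries. The counts of the 7SK family lay in pseudogenes, with 129 of 294 family genes above 0. Their sum was 41.6 and 41.6 CPM in 2-D and 46.8 and 36.0 CPM in 3-D. The 3-D libraries lay on either side of the 2-D libraries, and the log2 fold change of the sum was -0.003 (SE 0.09, edgeR adjusted p = 0.992). RN7SKP203, the pseudogene with the most counts, had 365 and 337 counts in 2-D and 382 and 201 in 3-D (log2 fold change 0.48, SE 0.17, edgeR adjusted p = 0.108). The next, RN7SKP164 and RN7SKP127, did not pass the test either, at 0.28 and -0.16. Of the 20 tested family genes 1 was called, RN7SKP80, which was chosen after its values were seen and fell from 120 and 83 counts in 2-D to 41 and 19 counts in 3-D (edgeR adjusted p = 0.0341). Of the 75-base windows of RN7SK, 36.2% occurred once on the main chromosomes. The paired reads had 150 bases, and how many of them could not be told from those of other places was not measured.

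RNU4-2, a U4 snRNA gene, rose in 3-D culture with a large difference between the 3-D libraries. Its counts were 175 and 171 in 2-D and 621 and 175 in 3-D. The levels were 5.07 and 5.54 CPM in 2-D, 30.2 CPM in 3-D replicate 1 and 9.74 CPM in 3-D replicate 2. Both 3-D libraries were above both 2-D libraries, but 3-D replicate 1 was 3.10-fold above 3-D replicate 2. The mean was 5.31 ± 0.330 CPM in 2-D and 20.0 ± 14.4 CPM in 3-D (SD, n = 2 each), which gave a log2 fold change of 1.93 (SE 0.35, edgeR quasi-likelihood test, adjusted p = 0.00497). Without 3-D replicate 1 the log2 fold change was 0.88 (edgeR adjusted p = 1.51e-05), and without 3-D replicate 2 it was 2.51. With 1 library left in 3-D, that p assumes that the lone library varies like the 2-D libraries. DESeq2 gave nearly the same change, 1.91, with an adjusted p of 0.221, so the call was lost with that tool as run here.

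The copy RNU4-1 followed the same pattern, with 8.70 and 7.90 CPM in 2-D, 69.6 CPM in 3-D replicate 1 and 17.1 CPM in 3-D replicate 2. Its log2 fold change was 2.40 (SE 0.43, edgeR quasi-likelihood test, adjusted p = 0.00450), and DESeq2 did not call it (adjusted p = 0.182). The U4 family of 90 genes summed to 21.7 and 20.5 CPM in 2-D and 107 and 34.6 CPM in 3-D. The sum rose by 1.75 on the log2 scale (SE 0.33, edgeR adjusted p = 0.00584), and RNU4-2 held 23.3% to 28.2% of its counts in the 4 libraries.

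RNU5A-1, a U5 snRNA gene, did not pass the test. It had 25 and 24 counts in 2-D and 54 and 16 counts in 3-D, or 0.725 and 0.777 CPM against 2.62 and 0.891 CPM. All 3-D values were above the 2-D values, 3-D replicate 2 by a small margin. The log2 fold change was 1.26 (SE 0.40, edgeR quasi-likelihood test, adjusted p = 0.0836). Without 3-D replicate 1 it was 0.25 (edgeR adjusted p = 0.823), and without 3-D replicate 2 it was 1.80 (edgeR adjusted p = 4.73e-05). The size of the change thus rested on 3-D replicate 1. The copy RNU5B-1 had 0.551 CPM in each 2-D library and 6.17 and 0.947 CPM in 3-D, with a log2 fold change of 2.72 (SE 0.61, edgeR adjusted p = 0.0170). The U5 family of 31 genes summed to 4.72 and 4.05 CPM in 2-D and 14.4 and 4.18 CPM in 3-D (log2 fold change 1.10, SE 0.36, edgeR adjusted p = 0.0855), and its 2-D and 3-D libraries overlapped. RNU12 and its pseudogene RNU12-2P together had 1 count, in 2-D replicate 2.

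Per kilobase of exon, RN7SL1 far exceeded the snRNAs. In 2-D, RNU4-2 was at 37.6 CPM per kilobase and RNU5A-1 at 6.47 CPM per kilobase, and in 3-D they were at 141 and 15.1 CPM per kilobase. The order RN7SL1, RNU4-2, RNU5A-1 held in every library, and no neighbors in this order overlapped in their CPM. These are levels in the libraries and not numbers of molecules in a cell.

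The RNAs of RNase P, RNase MRP, telomerase and the vault particle were at or near 0. RPPH1 (ENSG00000277209.1, chr14:20343075-20343407, minus strand, 333 bases) and RMRP (ENSG00000277027.1, chr9:35657754-35658017, minus strand, 264 bases) had no count, and neither had their pseudogenes. TERC (ENSG00000270141.3, chr3:169764520-169765060, minus strand, 541 bases) had 3 and 4 counts in 2-D and 3 and 1 counts in 3-D. VTRNA1-1 (ENSG00000199990.1, chr5:140711275-140711373, plus strand, 99 bases) had 4 and 2 counts in 2-D and 0 in both 3-D libraries. These counts are near the level that a count of 0 allows (3 counts) and too few for a test, so no change of TERC or VTRNA1-1 was detectable from them. The vault RNA gene with the most counts was VTRNA1-3, with 12 and 19 counts in 2-D and 36 and 22 in 3-D (log2 fold change 1.65, SE 0.36, edgeR quasi-likelihood test, adjusted p = 0.0136).

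The zeros were compared with the annotation. Of the 5 RNAs at 0, 4 lay wholly inside same-strand exons of another gene that the files also list. RN7SK lay inside 7SK, RN7SL2 inside the lncRNA ENSG00000282885.2, RPPH1 inside the lncRNA ENSG00000259001.3 and RNU12 inside the lncRNA ENSG00000270022.3. None of the 5 RNAs with counts lay wholly inside another gene, and TERC was overlapped over 81.0% of its length. RMRP had no such partner in GENCODE release 44. The files list 269 identifiers that release 44 does not hold, and their positions were not used here.

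Of the 4 enclosing genes, 7SK was at 0 and the other 3 had few counts. ENSG00000259001.3, which contains RPPH1, had 32 and 24 counts in 2-D and 46 and 25 in 3-D, and rose with a log2 fold change of 1.10 (SE 0.29, edgeR quasi-likelihood test, adjusted p = 0.0395). ENSG00000270022.3, which contains RNU12, had 46 and 38 counts in 2-D and 11 and 19 in 3-D (log2 fold change -0.71, SE 0.33, edgeR adjusted p = 0.242). ENSG00000282885.2, which contains RN7SL2, had 26 and 19 counts in 2-D and 15 and 21 in 3-D (log2 fold change 0.44, SE 0.35, edgeR adjusted p = 0.531). No surrounding gene thus held counts near those of RN7SL1, and which part of them came from the enclosed RNA cannot be told from counts per gene.

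The same was seen across short noncoding genes. Among 5 annotation types (snRNA, snoRNA, scaRNA, misc_RNA and ribozyme), 380 of 400 genes wholly inside the exons of another gene were at 0 in every library (95.0%). Of the 4580 genes with no such overlap, 2188 were at 0 (47.8%), and of the 126 with a partial overlap, 73 were (57.9%). For snRNA genes the shares were 43 of 48 (89.6%) against 937 of 1838 (51.0%). The counting tool was featureCounts, and its settings for reads that overlap several genes, map to several places or come from a given strand were not given in the sources used here. A count of 0 for RN7SK, RN7SL2, RMRP, RPPH1 or RNU12 is therefore a value of the table and does not show that the RNA was absent.

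**Figure D3:**
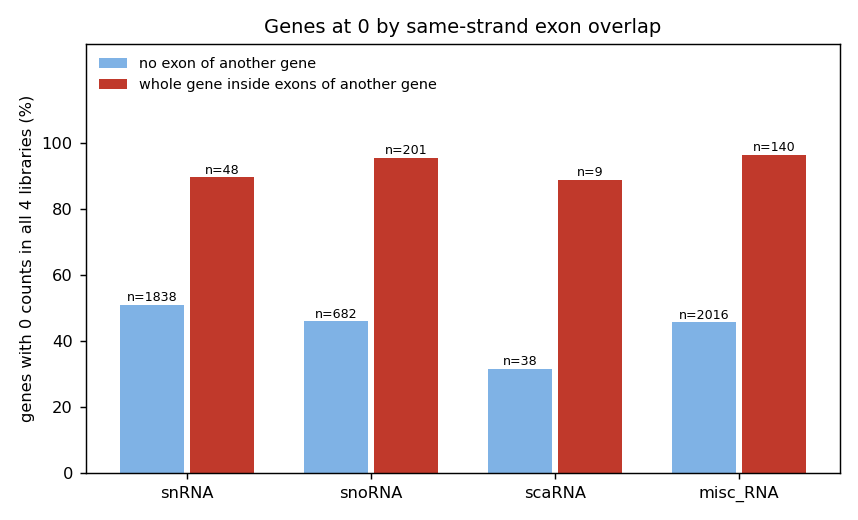
Share of short noncoding genes with 0 counts in all 4 libraries (percent, bars from 0, number of genes above each bar), for genes with no exon of another gene on their strand and for genes wholly inside such exons. In the 4 types drawn, 88.9% to 96.4% of enclosed genes and 31.6% to 51.0% of the others are at 0.

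Replicate agreement was measured as the log2 ratio of replicate 1 over replicate 2 in CPM, with an exact (Clopper-Pearson) 95% interval for counting error. In 2-D, the ratios of the 3 tested RNAs were small, with a wide interval for RNU5A-1. RN7SL1 had a ratio of 0.05 (interval 0.04 to 0.05), RNU4-2 one of -0.13 (-0.44 to 0.19) and RNU5A-1 one of -0.10 (-0.97 to 0.77). For RNU4-2 and RNU5A-1 the 2-D replicates differed by no more than the sampling of reads allows. In 3-D, RN7SL1 had a ratio of 0.25 (0.23 to 0.26), RNU4-2 one of 1.63 (1.39 to 1.88) and RNU5A-1 one of 1.56 (0.73 to 2.46), and no interval held 0. The medians of the size of this ratio over all tested genes were 0.0885 in 2-D and 0.128 in 3-D.

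The 3-D ratios were set beside those of genes with a mean CPM within 2-fold of each RNA, the RNA itself included. Of 4697 genes at the level of RNU4-2, 99.9% had closer 3-D replicates, and of 5381 genes at the level of RNU5A-1, 98.7% had. In 2-D the shares were 72.8% and 21.8%. RN7SL1 had 20 genes at its level, itself among them, of which 95.0% were closer in 3-D and 65.0% in 2-D. The 3-D replicate difference of RNU4-2 (1.63) was thus not far below its change between conditions (1.93). That of RNU5A-1 (1.56) exceeded its change (1.26), whereas that of RN7SL1 (0.25) was small beside its change (-0.94).

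The direction of the difference was shared by other structured RNAs. A list of 32 further snRNA, vault, Y RNA, 7SL and BC200 genes held 30 in the files and 18 that were tested. Replicate 1 was above replicate 2 in 3-D in 17 of these 18, against 50.1% of all tested genes, and by more than 1 on the log2 scale in 10 of 18, against 2.80%. The median 3-D ratio of the 18 was 1.11 and the median 2-D ratio 0.10, and none of the 18 differed by more than 1 between the 2-D replicates. Library 3-D replicate 1 was the highest of the 4 in 14 of the 18, and in RNU4-2 and RNU5A-1, against 25.8% of all tested genes. RN7SL1 had a positive 3-D ratio as well but was highest in 2-D.

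**Figure D4:**
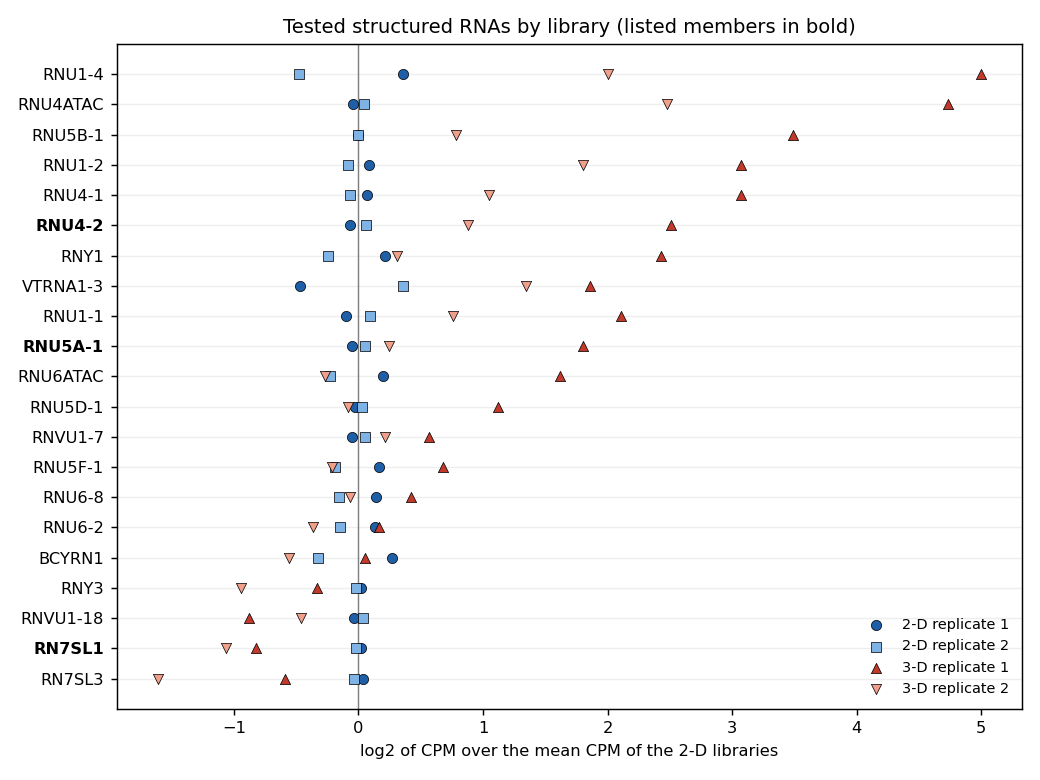
Level of each tested structured RNA in each library, as the log2 ratio of its CPM to the mean CPM of the 2-D libraries, ordered by the change between conditions, with RN7SL1, RNU4-2 and RNU5A-1 in bold. The 2-D points stay close to 0, and 3-D replicate 1 lies farthest to the right in 14 of the 18 other RNAs, while RN7SL1 and RN7SL3 lie left of 0 in both 3-D libraries.

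Of the 18 other structured RNAs, 8 were called higher in 3-D and 1, RN7SL3, lower. Their median log2 fold change was 0.82, against -0.0001 over all tested genes. Over whole annotation types it was 0.15 in 74 tested snRNA genes and -0.03 in 126 misc_RNA genes, so the list does not stand for these types. RNU4ATAC, the U4 counterpart of the minor spliceosome, had 0.638 and 0.680 CPM in 2-D and 17.5 and 3.67 CPM in 3-D, and rose by 4.02 on the log2 scale (SE 0.59, edgeR quasi-likelihood test, adjusted p = 0.00131). RNY1, a Y RNA bound by the Ro60 protein, had 26.6 and 19.4 CPM in 2-D and 124 and 28.5 CPM in 3-D (log2 fold change 1.74, SE 0.43, edgeR adjusted p = 0.0273). RNU1-1, RNU1-2 and RNU1-4, which encode U1 snRNA, were called with log2 fold changes of 1.61, 2.59 and 4.16, but none of their 75-base windows was found only once, so the split of reads between these copies is uncertain. RNU4-1, RNU5B-1 and VTRNA1-3 were the other called genes. The 9 that did not pass the test were RNU5D-1, RNU5F-1, RNU6-2, RNU6-8, RNU6ATAC, RNVU1-7, RNVU1-18, RNY3 and BCYRN1, with log2 fold changes from -0.66 (RNVU1-18) to 0.98 (RNU6ATAC).

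Without 3-D replicate 1, RNU1-1, RNU1-2, RNU4-1 and RNU4ATAC were still called higher and RN7SL3 lower, and the median of the 18 was 0.07. Without 3-D replicate 2, 10 were called higher and the median was 1.37. DESeq2 called 2 of the 18, RNU1-2 and RNU4ATAC. In 3-D replicate 2, 9 of the 18 were above both 2-D libraries, against 40.2% of all tested genes, and in 3-D replicate 1 14 were, against 39.2%. The fall of RN7SL1 was of similar size with either 3-D library, at -1.07 without 3-D replicate 1 and -0.82 without 3-D replicate 2.

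**Figure D5:**
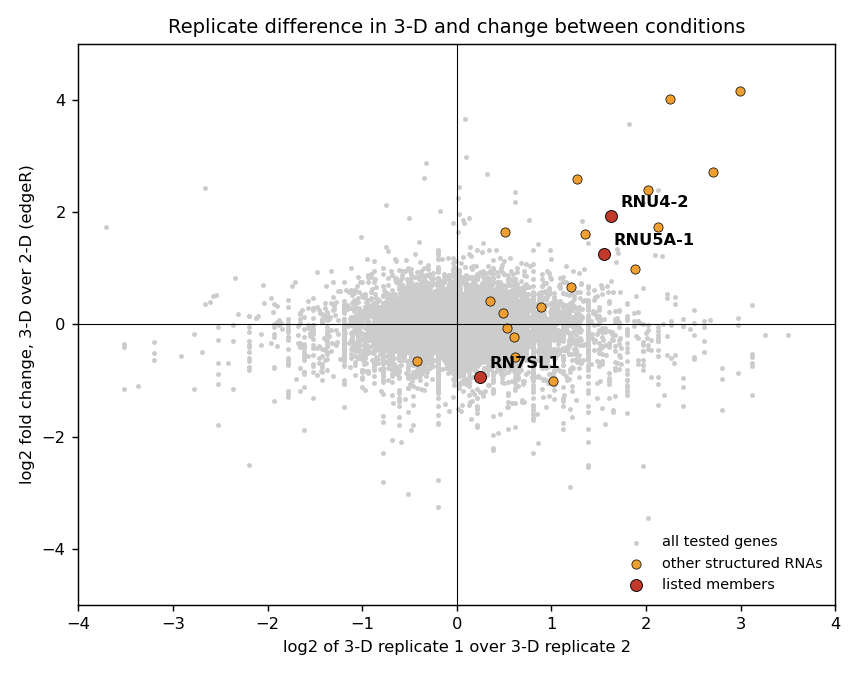
Log2 fold change of 3-D over 2-D (edgeR) against the log2 ratio of 3-D replicate 1 over replicate 2, for the tested genes with counts in both 3-D libraries (22545 of 22555, of which 10 lie outside the axes). RNU4-2 (1.63, 1.93) and RNU5A-1 (1.56, 1.26) lie at the upper right with other structured RNAs and RN7SL1 (0.25, -0.94) lies below 0; both axes use the same 3-D libraries and are not independent.

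Among whole annotation types, the median 3-D ratio was 0.35 in 74 tested snRNA genes, 0.36 in 133 snoRNA genes and 0.23 in 126 misc_RNA genes, against -0.006 in 14305 protein-coding genes. By exon length it was 0.27 in 188 genes of over 100 to 150 bases and -0.004 in 18296 genes of over 1000 bases. RNU4-2 and RNU5A-1 belong to the snRNA type and to that length class, and their ratios lie above both medians. The study's methods describe the input RNA as intact, without a value for each library, and do not give fragment lengths. The part of RNA integrity and fragment length in the difference between the 3-D libraries was not tested.

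The called changes of proteins that bind, make or mature these RNAs lay between -0.41 and 0.30 on the log2 scale, apart from PRPF31 and INTS3. Of 13 tested proteins of the 7SK complex and P-TEFb, 4 were called higher and 1 lower. LARP7, the protein that binds the end of 7SK RNA, fell from 399 and 398 CPM in 2-D to 322 and 278 CPM in 3-D, by 0.41 on the log2 scale (edgeR quasi-likelihood test, adjusted p = 4.54e-04). HNRNPA1, HNRNPR and HNRNPA2B1, which bind 7SK RNA released from P-TEFb, rose by 0.20, 0.17 and 0.16, of which DESeq2 did not call the last (adjusted p = 0.268). Of 8 signal recognition particle and receptor proteins, 1 was called. SRP14, which binds the Alu domain of 7SL RNA, rose from 107 and 101 CPM to 125 and 115 CPM (log2 fold change 0.20, edgeR adjusted p = 0.00928), so that it and RN7SL1 moved in opposite directions. SRP19 and SRP54, which bind the other domain of 7SL RNA, did not pass the test, at -0.15 and 0.07.

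No protein of 10 for RNase P and RNase MRP, of 9 for telomerase or of 3 for the vault particle was called by edgeR or by DESeq2. At an unadjusted p below 0.05 edgeR gave 3, 0 and 0 of them. Of 13 proteins of the U4 and U5 particles, 3 were called higher and 1 lower with edgeR's quasi-likelihood test, and 0 with DESeq2. SNU13, which binds U4 snRNA directly, fell by 0.17 (adjusted p = 0.00872), PRPF3 rose by 0.15 (adjusted p = 0.0184), and SNRNP200, the helicase that unwinds U4 from U6, rose by 0.11 (adjusted p = 0.0496). PRPF31 was called at 2.16 with 1.54 and 1.26 CPM in 2-D and 9.81 and 2.51 CPM in 3-D, but all of its 75-base windows are also on other contigs of hg38, so its counts are uncertain. Of 8 proteins of the U11/U12 particle, ZRSR2 rose by 0.30 (edgeR adjusted p = 0.0340) and SNRNP48 fell by 0.31 (edgeR adjusted p = 0.0185), but DESeq2 called neither.

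Of 13 tested subunits of RNA polymerase III, which makes 7SL, 7SK, RNase P, RNase MRP and vault RNA, 2 were called lower and none higher. POLR3K fell by 0.38 (edgeR quasi-likelihood test, adjusted p = 0.00427), with 32.2 and 31.2 CPM in 2-D and 25.4 and 23.3 CPM in 3-D, and POLR1D, which RNA polymerase I shares, fell by 0.16 (adjusted p = 0.0141). DESeq2 called POLR3K but not POLR1D (adjusted p = 0.210). Among 12 transcription factors of this polymerase, GTF3C1 rose by 0.16 (edgeR adjusted p = 0.00926). Of 21 snRNA gene activators and Integrator subunits 1 was called, INTS3, whose windows also lie on other contigs. Of 11 genes listed for RNA tails and small RNA maturation, 1 was called. RO60, which binds Y RNA, fell by 0.12 (edgeR adjusted p = 0.0435), with an adjusted p of 0.319 in DESeq2. Over all 11 protein lists, 11 of 120 tested genes were called higher and 6 lower (14.2%), with a median log2 fold change of 0.03.

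Pluripotent cell markers were present, and those of the naive state in part. All 10 pluripotent cell markers were tested, with a summed level of 6362 to 6389 CPM in 2-D and 6659 to 6754 CPM in 3-D, and L1TD1 and DNMT3B were called higher in 3-D. The naive state markers summed to 110 and 113 CPM in 2-D and 122 and 120 CPM in 3-D, and KLF5 rose by 0.26. TFCP2L1, DNMT3L, KLF4, DPPA3 and SUSD2 were also present and did not pass the test. DPPA5 was at 0.130 CPM or less, ARGFX at 0.445 CPM or less and KLF17 at 1.07 CPM or less in every library. Of 6 tested genes of the fibroblast marker list, COL3A1, COL1A1 and THY1 were called higher in 3-D. Whether their counts came from fibroblasts was not tested. The list's summed level was 531 to 539 CPM in 2-D and 548 to 598 CPM in 3-D. Per the study's methods, the line was kept on mouse feeder cells and moved to culture without feeders before encapsulation. The other markers of the fibroblast list differed in level and none was called. COL1A2 was at 300 to 324 CPM, PDGFRB at 7.14 to 9.13 CPM and TWIST2 at 2.81 to 4.06 CPM over the libraries. DCN and LUM were below 1 CPM in every library and were not tested. No germ layer marker of 4 tested was called by edgeR or DESeq2, and 2 had an unadjusted p below 0.05. The part of other cells in the changes of RN7SL1 and RNU4-2 was not tested.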

How the data were processed

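RNA-seq libraries of Elf1 cells in 2-D culture (2 libraries) and 3-D culture (2 libraries) were analysed. Per the labels and the study's methods, the authors depleted ribosomal RNA with the KAPA RiboErase kit, trimmed paired reads of 150 bases with Trim Galore 0.6.3, mapped them to hg38 with HISAT2 2.1.0 and assigned them to GENCODE release 30 genes with featureCounts 1.6.4. The authors deposited these counts without normalization, as whole numbers in 1 file per library. A deposited table of values normalized with DESeq2 2.11.40.6, which also holds the authors' fold changes and p-values, was not used.

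Identifiers were matched to GENCODE release 44 without their version (60295 of 60564, with the other 269 holding 0.122% of the counts, and 81.8% of the matched ones the same version). Counts were fitted with edgeR 4.0.16 in R 4.3.3 over 22555 genes that passed its filter on low counts (minimum count 10), with TMM normalization, condition as the only term, the quasi-likelihood test and Benjamini-Hochberg adjustment over all tested genes. Genes with an adjusted p below 0.05 were called. The standard error is the size of the log2 fold change over the square root of F. CPM values use TMM library sizes, and exact intervals and floors (3 counts) cover counting error only. Totals were 33833778 and 30114220 counts in 2-D and 21154409 and 18276147 in 3-D, and the typical biological coefficient of variation was 5.10%. With 2 libraries per condition, p-values measure the spread between these libraries.

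Exon overlap on the same strand was taken from the annotation, and copies of 75-base windows were counted as exact matches on both strands of hg38. Sequences were read with samtools 1.23.1 and aligned with mafft 7.526. The fit was tested on simulated counts. Some sequences and 1 called gene are not reported here. Named genes were all 10 RNAs, up to 3 family copies each with the most counts, the tested genes of the structured RNA list, and in each other list the called genes and, up to 3, those with the largest change. The RNAs, lists and tests were chosen with earlier results of these data known. Alternatives were the likelihood ratio test, DESeq2 1.42.0, other scalings and filters, a replicate block, family sums and leaving out each library. DESeq2 was run on the genes that passed edgeR's filter, with its own independent filtering and outlier cutoff turned off. Python 3.11.15 was used with scipy 1.17.1, pandas 2.3.3, matplotlib 3.10.9 and numpy 2.4.6.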

Additional observations from a re-analysis of the deposited data

How the results depend on the processing

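RN7SL1 stayed lower in 3-D and called under all 12 alternatives fitted to the gene itself, between -1.07 and -0.82, and the 7SL family sum was -0.84. RNU4-2 stayed higher, between 0.88 and 2.51, and lost its call with DESeq2 alone (1.91, adjusted p = 0.221), which left 1 of the 10 RNAs called. RNU5A-1 stayed higher and became called without the filter on low counts (1.26, edgeR quasi-likelihood test, adjusted p = 2.78e-04). That setting gave RNU4-2 an adjusted p of 4.79e-70 at a change of 1.93. Such p-values are too small for 2 libraries per condition, so this call is not to be relied on. Leaving out 1 library gave RNU5A-1 a change of 0.25 (without 3-D replicate 1) to 1.80 (without 3-D replicate 2), with 1.20 without 2-D replicate 1. A left-out library leaves 1 sample in its condition, which is then assumed to vary like the other condition. The cause of these shifts was not tested.

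The labels and the study's methods do not say whether the replicate numbers pair the samples. The correlation over 22555 genes between the differences of replicate 1 and 2 in 2-D and in 3-D was -0.01. With the replicate block, 2167 genes were called in place of 1782, RNU5A-1 became called (1.21, adjusted p = 0.0293) and RN7SL1 and RNU4-2 kept their calls.

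Genes called numbered 1139 with the likelihood ratio test, 733 with DESeq2, 2486 without the filter and 974 (without 2-D replicate 2) to 2643 (without 3-D replicate 1) with a library left out. In the protein lists, 17 genes were called, against 10 with the likelihood ratio test, 7 with DESeq2 and 10 to 31 with a library left out. Scaling by library size alone shifted the median of all genes to -0.06 and called 514 genes higher and 1872 lower, in place of 1024 and 758. No value for RN7SL1, RNU4-2 or RNU5A-1 changed its direction. TERC and VTRNA1-1 had at most 4 counts in a library, too few for a test.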
